A study of Mus musculus with 48 samples.

Results

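Lavage fluid of mice given an airway allergen was compared with lavage fluid of mice immunized in the same way and given saline. Members are the 4 immunized and 4 allergic lavage fluid libraries of library sets 3 and 4, with 2 libraries of each group in each set, out of 48 small RNA libraries in all. The labels name the groups, and the set is the deposited count table that holds a library. All mice were C57BL/6 and carried no modified allele according to the labels. Both groups had weekly intraperitoneal injections of 50 ug ovalbumin with the adjuvant alum over 3 to 4 weeks. From 7 days after the last injection, 20 ul of phosphate-buffered saline was aspirated through the oropharynx on 3 days, with 50 ug ovalbumin in the allergic group and without it in the immunized group. Samples were taken on day 4 counted from the first challenge. The airways were washed with 1 ml, and 5 minutes of spinning at 500 g parted the fluid from the cells. The immunized mice thus received the antigen, the adjuvant and the airway procedure too, and the groups differ by allergen in the airway.

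Injected ovalbumin with alum primes T helper 2 cells and antibodies, and ovalbumin that later reaches the airway draws eosinophils and lymphocytes into the air spaces. MicroRNAs (miRNAs) are short RNAs that pair through their seed, bases 2 to 8, with messenger RNAs and lower their output. In body fluids they persist within vesicles and protein complexes, and a miRNA made mainly by a given kind of cell marks RNA released by it. Values here are shares of the miRNA pool of a library, so fewer cells of a type and less RNA released per cell cannot be told apart, and neither can a change of amount from a change in the rest of the pool.

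The sequences below are of 2 seed families whose members moved apart and of 6 other miRNAs that the results return to. They are mature forms from RefSeq in build GRCm38.p6, 5′ to 3′, with the seed in capitals. The first family has the miR-15/16 seed, and its members come from separate genes.
miR-15b-5p: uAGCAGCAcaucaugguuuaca
miR-15a-5p: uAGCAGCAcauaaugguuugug
miR-16-5p: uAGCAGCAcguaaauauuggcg
miR-322-5p: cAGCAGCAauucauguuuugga
miR-195a-5p: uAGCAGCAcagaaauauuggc
miR-497a-5p: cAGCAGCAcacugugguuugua
The second family has the miR-34 and miR-449 seed. miR-34c-5p, discussed with it below, had no sequence in the source used and is not listed, so the list is incomplete.
miR-449a-5p: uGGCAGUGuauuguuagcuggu
miR-449c-5p: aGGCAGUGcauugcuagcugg
miR-34b-5p: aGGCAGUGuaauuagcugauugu
miR-34a-5p: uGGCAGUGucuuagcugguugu
The others are a pan-leukocyte miRNA, a myeloid miRNA and 4 miRNAs with low p values or with a change that differed from that in cells.
miR-142a-3p: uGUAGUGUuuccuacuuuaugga
miR-223-3p: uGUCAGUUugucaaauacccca
miR-340-5p: uUAUAAAGcaaugagacugauu
miR-130b-3p: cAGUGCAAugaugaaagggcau
miR-338-3p: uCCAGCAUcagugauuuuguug
miR-218-5p: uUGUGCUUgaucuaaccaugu

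Of 1409 entries in the count tables, 811 had a count in these 8 libraries and 277 passed the filter on low counts and were tested. Library totals were 135710 to 561797 counts, so that 3 counts were worth 5.34 to 22.1 counts per 1000000 (CPM). Fluid has no cells of its own to check against the label. The 14 epithelial miRNAs listed held 9.97% to 19.5% of the counts, the 7 of multiciliated cells 3.60% to 6.20%, and the pan-leukocyte miR-142a strands 0.179% to 1.09%. Library allergic 6 stood apart from the others. It had 14.9% of its counts on miRNAs of red blood cells, more than its 9.97% on epithelial miRNAs, against 1.26% to 1.72% in the other allergic and 0.268% to 1.56% in the immunized libraries, and its TMM scaling factor was 0.889 against 0.968 to 1.06 in the other 7.

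Both strands of miR-142a, a miRNA of leukocytes, and the myeloid miR-223-3p and miR-147-3p were higher in every allergic than in every immunized library. miR-195a-5p, miR-497a-5p, miR-218-5p and miR-34a-5p were lower in every one, but no single miRNA passed the main test. By the quasi-likelihood test of edgeR, adjusted by Benjamini-Hochberg, 0 of 277 (0%) had an adjusted p under 0.05, and the smallest adjusted p was 0.0702. At an unadjusted p under 0.05, 27 were higher (9.75%) and 34 were lower (12.3%). In TMM-scaled CPM, all 4 allergic libraries lay above all 4 immunized ones for 25 miRNAs (9.03%) and below them for 20 (7.22%). Those counts were not recomputed under another scaling. The log2 difference was positive for 114 of the 277 and negative for 163. On the same 8 libraries DESeq2's Wald test called 28, of which 17 were higher (6.14%) and 11 lower (3.97%), and 65 of the 277 had no adjusted p in that test. limma-voom called 0. When the other 6 fluid libraries (3 untreated and 3 allergic, set 2) entered the edgeR fit to share the estimate of spread, 13 of 294 were called higher (4.42%) and 3 lower (1.02%). Of those 16 calls 14 were also among the 28 of DESeq2. The 14-library calls were 0 without immunized 4, allergic 4 or allergic 6, 5 without immunized 3 and 10 without immunized 2. They were 25 without allergic 1 or untreated 3, 29 without untreated 1, 31 without allergic 5 and 34 without allergic 7. The DESeq2 calls were 11 without immunized 4, 13 without allergic 4 and 19 to 30 without each of the others. In the 8-library fit, the count was 22 without allergic 7, 19 without allergic 5, 1 without immunized 2 and 0 without each of the others. In what follows, adjusted p is edgeR's from the 8 libraries unless another fit is named, and a log2 difference is allergic over immunized with its SE.

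**Figure D1:**
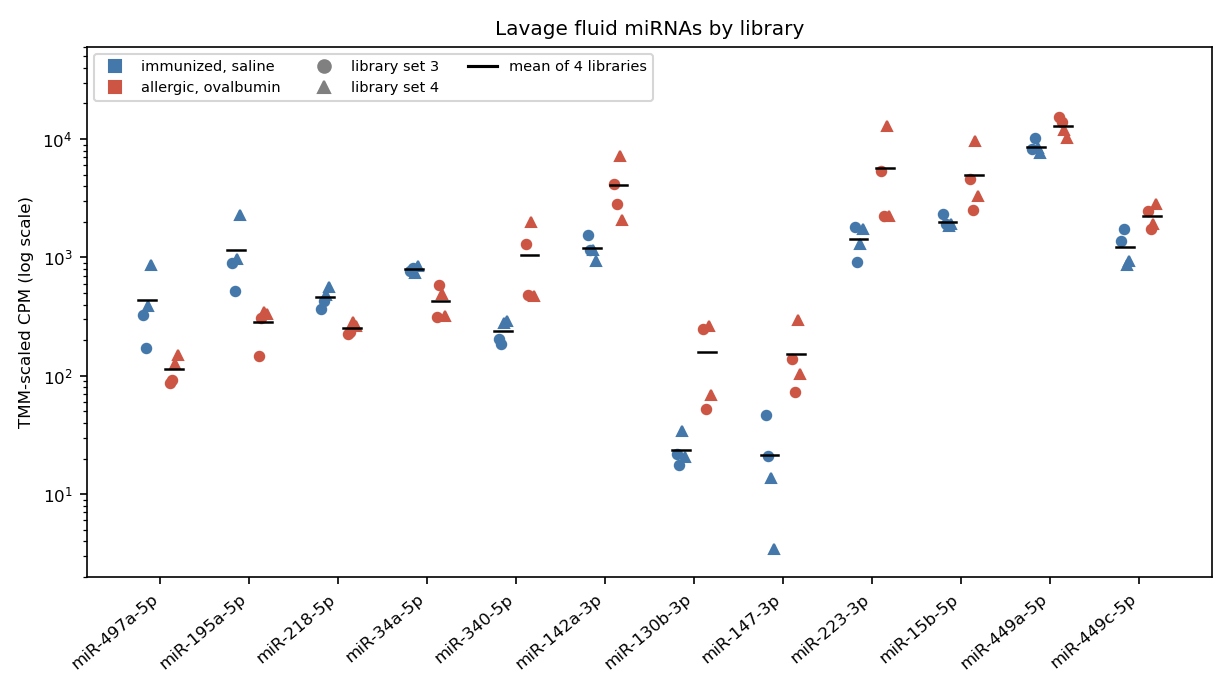
TMM-scaled CPM on a log axis of 12 miRNAs in the 4 immunized and the 4 allergic lavage fluid libraries, with marker shape for the library set and a bar for the mean. The allergic points lie wholly below the immunized ones for the 4 miRNAs on the left and wholly above them for the other 8.

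Second to miR-340-5p in p on the higher side was miR-142a-3p, made in all blood cell lineages. It was at 1562, 1163, 1158 and 936 CPM in immunized libraries 1 to 4 and at 4174, 2853, 7262 and 2063 CPM in allergic libraries 4 to 7. The groups did not overlap, and allergic 6 was the highest. The difference was 3.39-fold (log2 1.76, SE 0.39, edgeR adjusted p = 0.0758; DESeq2 adjusted p = 3.90e-04; 14-library edgeR adjusted p = 0.0308). Its other strand, miR-142a-5p, was at 1274, 682, 752 and 799 CPM in the immunized and at 2160, 1759, 5011 and 1967 CPM in the allergic libraries (log2 1.59, SE 0.38, edgeR adjusted p = 0.0813). The 2 strands come from 1 precursor, which lies in an intron of Mir142hg on chromosome 11 and is measured here as separate entries.

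miR-223-3p, a miRNA of neutrophils and other myeloid cells, was at 1803, 915, 1294 and 1739 CPM in the immunized libraries. In allergic libraries 4 to 7 it was at 5357, 2244, 12960 and 2219 CPM. All allergic libraries were above all immunized ones, and allergic 5 and 7 were the closest to them. The log2 difference was 1.90 (SE 0.58, edgeR adjusted p = 0.105; DESeq2 adjusted p = 0.00346), and it was 1.12 without allergic 6. miR-147-3p, known to be switched on in stimulated macrophages, had few counts in immunized fluid, with 15, 6, 4 and 2, and 19, 25, 109 and 45 in the allergic libraries. Those correspond to 3.44 to 46.9 CPM and to 72.6 to 298 CPM, a log2 difference of 2.95 (SE 0.75, edgeR adjusted p = 0.0847; 14-library edgeR adjusted p = 0.0345). The other listed myeloid entries, miR-223-5p, miR-511-3p and miR-511-5p, had 48, 15 and 10 counts over the 8 libraries and were not tested.

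Lymphocyte-linked miRNAs did not form a group that moved one way. miR-150-5p, of mature lymphocytes, was at 1261, 328.7, 497.04 and 867.6 CPM in the immunized and 1387, 824, 1967 and 1139 CPM in the allergic libraries. Its groups overlapped, and the log2 difference was 0.83 (SE 0.44, edgeR adjusted p = 0.301). miR-342-3p had a log2 difference of -0.15, miR-181a-5p of 0.26 and miR-181b-5p of -0.09, and all 3 overlapped.

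Of the 10 tested miRNAs that immune stimulation is known to induce, 7 had a positive and 3 a negative log2 difference, with a median of 0.38 beside -0.09 over all 277. miR-147-3p, with 225 counts over the 8 libraries, is counted in this list and in the myeloid list. miR-155-5p, needed for T helper and B cell responses, was at 169, 265, 235 and 189 CPM in the immunized and 445, 276, 492 and 352 CPM in the allergic libraries. All allergic libraries were higher, allergic 5 by little (log2 0.86, SE 0.26, edgeR adjusted p = 0.0937; DESeq2 adjusted p = 0.0326). miR-146a-5p, which restrains NF-kB signalling, had a log2 difference of 0.86 (SE 0.31, edgeR adjusted p = 0.135), with allergic 5 at 758 CPM inside the immunized range of 555 to 911. Every library had miR-21a-5p as its most abundant entry, with 13.1% to 17.96% of the counts in immunized and 16.2% to 22.0% in allergic fluid. In TMM-scaled CPM all allergic libraries (178729 to 218078) were above all immunized ones (126430 to 169703), by 0.40 on the log2 scale (SE 0.13, edgeR adjusted p = 0.118). As unscaled shares of counts the groups overlapped, with allergic 6 at 16.2% and immunized 3 at 17.96%. miR-146b-5p, miR-221-3p, miR-222-3p, miR-31-5p and miR-132-3p had log2 differences between -0.23 and 0.36, and their groups overlapped.

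The miR-15/16 seed family split by gene. miR-195a-5p was at 904, 516, 963 and 2274 CPM in the immunized and at 145.96, 308, 347 and 334 CPM in the allergic libraries, 3.84-fold lower (log2 -1.94, SE 0.37, edgeR adjusted p = 0.0702; DESeq2 adjusted p = 6.56e-05; 14-library edgeR adjusted p = 0.0375). miR-497a-5p was at 329, 173, 388 and 859 CPM against 87.6, 92.9, 125.8 and 151 CPM (log2 -1.85, SE 0.34, edgeR adjusted p = 0.0702). For both, the groups were wholly apart and immunized 4 was far above the other immunized libraries. Their genes lie next to each other on the plus strand of chromosome 11, Mir497 at chr11:70234717-70234800 and Mir195a at chr11:70235042-70235135 (GRCm38), with no annotated host gene on that strand.

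Members of the same family from other genes were higher. miR-15b-5p was at 2350, 1901, 1852 and 1911 CPM in the immunized and 4627, 2502, 9546 and 3305 CPM in the allergic libraries (log2 1.26, SE 0.38, edgeR adjusted p = 0.0933; DESeq2 adjusted p = 0.0161), and the difference was 0.77 without allergic 6. The 2 passenger strands of its gene cluster, miR-15b-3p and miR-16-2-3p, had log2 differences of 1.84 (SE 0.46, edgeR adjusted p = 0.0821) and 1.62 (SE 0.38, edgeR adjusted p = 0.0813). Both were called in the 14-library fit, with edgeR adjusted p = 0.0345 and 0.0349, and were chosen for mention after their values were seen. Mir15b and Mir16-2 lie within an intron of Smc4, a condensin gene, on chromosome 3. miR-16-5p, which Mir16-1 on chromosome 14 also makes, was higher by only 0.39 on the log2 scale and miR-15a-5p by 0.42, yet every allergic library was above every immunized one for each. Allergic 6, with 14.9% of its counts on red cell miRNAs, had miR-16-5p at 67019 CPM. The other allergic libraries had it at 44680 to 46740 CPM. Whether red cell RNA accounts for part of the differences of this family was not tested. miR-322-5p, from a cluster on chromosome X, had a log2 difference of -0.00 (SE 0.38), whose sign turned with DESeq2's size factors. Thus 3 of the 6 entries with this seed were wholly above, beside 25 of 277 (9.03%) over all tested. Another 2 were wholly below, beside 20 of 277 (7.22%), and 1 overlapped. Of 35 seeds shared by tested entries, 3 had entries wholly apart on both sides, this seed among them. The summed share of the 6 was 5.57% to 5.67% of the counts in immunized and 6.18% to 8.65% in allergic fluid.

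**Figure D2:**
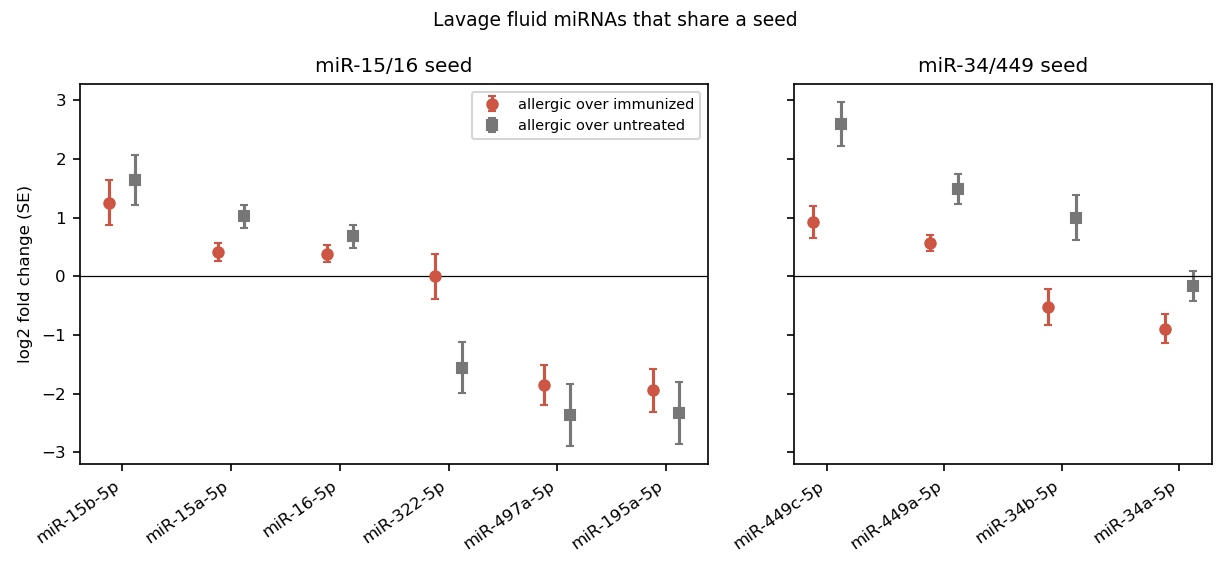
Log2 fold changes in lavage fluid, with SE, of miRNAs that share the miR-15/16 seed (left) and the miR-34 and miR-449 seed (right). Circles are allergic over immunized, from the 8 libraries of sets 3 and 4. Squares are allergic over untreated in set 2, a contrast of 6 other libraries in the 14-library fit, whose SE also used the 8. In the left panel miR-15b-5p, miR-15a-5p and miR-16-5p are above 0 and miR-497a-5p and miR-195a-5p below it in both comparisons, and in the right panel miR-449c-5p and miR-449a-5p are above 0 in both. miR-34c-5p is not shown.

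A like split ran through the miR-34 and miR-449 family, of which miR-34b, miR-34c and miR-449 mark multiciliated cells. miR-449a-5p was at 8225, 10157, 8416 and 7660 CPM in the immunized and 15224, 14050, 11964 and 10183 CPM in the allergic libraries. Allergic 7 lay just above immunized 2 and the groups did not overlap (log2 0.57, SE 0.14, edgeR adjusted p = 0.0813; DESeq2 adjusted p = 0.0165). miR-449c-5p was at 1386, 1725, 861 and 931 CPM against 2481, 1739, 1904 and 2850 CPM (log2 0.92, SE 0.27, edgeR adjusted p = 0.0933). Both come from an intron of Cdc20b on chromosome 13. The 4 tested strands of miR-34b and miR-34c, from chromosome 9, had log2 differences of -0.52 to -0.13 and overlapping groups, with the abundant miR-34c-5p at 18102 to 25289 CPM in immunized and 12380 to 22308 CPM in allergic fluid. miR-449b had 28 counts and was not tested. miR-34a-5p, a target of p53 found in many cell types, was lower in every allergic library, at 770, 816, 732 and 852 CPM against 314, 580, 492 and 318 CPM (log2 -0.89, SE 0.25, edgeR adjusted p = 0.0886; 14-library edgeR adjusted p = 0.0458). It is on no list and was named after its values were seen.

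Among the miRNAs with the lowest p values on the higher side, miR-340-5p was at 207, 187, 279 and 289 CPM in the immunized and 1292, 479, 1983 and 476 CPM in the allergic libraries. All allergic libraries were higher, and allergic 4 and 6 were well above allergic 5 and 7 (log2 2.13, SE 0.46, edgeR adjusted p = 0.0758; DESeq2 adjusted p = 1.87e-04; 14-library edgeR adjusted p = 0.0308). It lies in an intron of Rnf130 on chromosome 11, and its other strand, miR-340-3p, had a log2 difference of 0.06. miR-130b-3p had 7, 5, 10 and 12 counts in the immunized libraries and 34, 18, 97 and 30 in the allergic ones. That is 17.7 to 34 CPM against 52.2 to 265 CPM (log2 2.71, SE 0.62, edgeR adjusted p = 0.0784). The same 2 libraries, allergic 4 and 6, were the highest. miR-130a-3p and miR-301a-3p, which share its seed, had log2 differences of -0.27 and -0.04.

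On the lower side miR-218-5p, made from introns of Slit2 and Slit3, was at 369, 431, 480 and 566 CPM in the immunized and at 226, 232, 287 and 265 CPM in the allergic libraries. Its groups did not overlap and its spread was small (log2 -0.86, SE 0.18, edgeR adjusted p = 0.0758; DESeq2 adjusted p = 0.00264; 14-library edgeR adjusted p = 0.131). miR-188-5p (log2 1.2, SE 0.32, edgeR adjusted p = 0.0886) and miR-186-5p (log2 0.72, SE 0.22, edgeR adjusted p = 0.105) were wholly higher and were called in the 14-library fit. That fit also called miR-338-5p and miR-592-5p, which were too low for the 8-library test, at 0 to 10.7 and 0 to 3.57 CPM in immunized and 16.3 to 121 and 9.34 to 69.5 CPM in allergic fluid. These 4 were named after their values were seen.

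**Figure D3:**
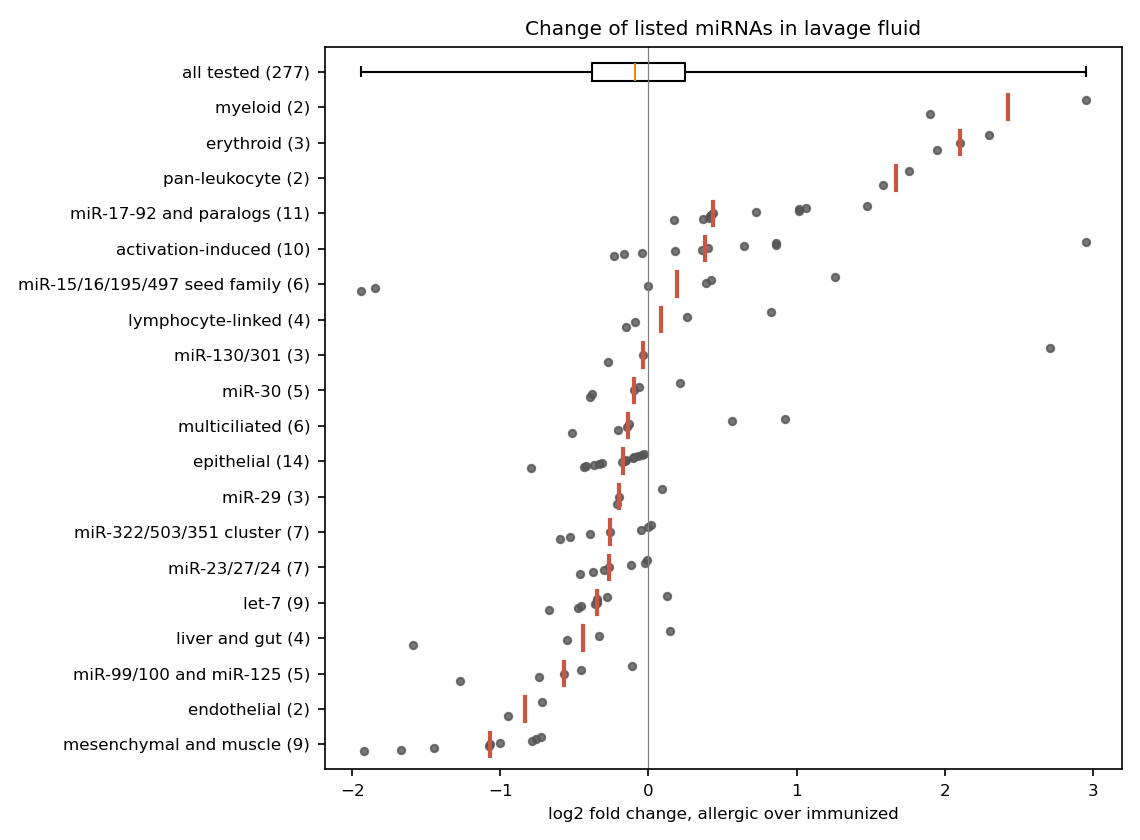
Log2 fold changes, allergic over immunized, of the tested members of 19 miRNA lists with more than 1 tested member, with the number tested in brackets, each point a miRNA and each bar the list's median. The box at the top shows the quartiles and the range of all 277. The myeloid, erythroid and pan-leukocyte lists lie to the right and the mesenchymal and muscle list lies wholly to the left. miR-147-3p (myeloid and activation-induced) and miR-322-5p are each a point in more than 1 list.

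miRNAs of fibroblasts and muscle had negative log2 differences, and none passed the main test. Of the mesenchymal and muscle list 9 of 9 tested members were negative, beside 163 of 277 over all tested, with a median of -1.07. An unadjusted p under 0.05 was found for 6 of them, beside 34 of 277 (12.3%), and none of the 9 had groups wholly apart. miR-199b-5p was at 307, 131, 242 and 680 CPM in the immunized and 80.3, 131, 159 and 101 CPM in the allergic libraries (log2 -1.45, SE 0.43, edgeR adjusted p = 0.0933; DESeq2 adjusted p = 0.0165). Immunized 2 fell within the allergic range. The joint entry miR-199a-3p/miR-199b-3p was at 1721, 760, 1627 and 3138 CPM against 686, 659, 1149 and 858 CPM (log2 -1.07, SE 0.31, edgeR adjusted p = 0.0933). miR-214-3p, which with Mir199a-2 lies in an exon of Dnm3os on chromosome 1, had a log2 difference of -1.08 (SE 0.30, edgeR adjusted p = 0.0886). The smooth muscle miRNAs miR-143-3p and miR-145a-5p had log2 differences of -0.79 and -1.01 and overlapping groups. The skeletal and heart muscle miRNAs rested on a single library. miR-1a-3p was at 1993 CPM in immunized 4 and 87.5 to 175 CPM in the other 7, and miR-133a-3p at 1377 CPM in immunized 4 and 50.3 to 157 CPM elsewhere. Without immunized 4 the log2 difference of miR-1a-3p turned from -1.67 to 0.07. The part of such muscle RNA in the other differences of immunized 4 was not tested.

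The endothelial miR-126a strands and the liver miR-122-5p had negative log2 differences too. miR-126a-5p was at 692, 357, 497.04 and 744 CPM in the immunized and 197, 197, 632 and 236 CPM in the allergic libraries, and miR-126a-3p at 668 to 1733 against 540 to 1195 CPM. For miR-126a-5p, allergic 6 stood apart, and the log2 difference of -0.95 (SE 0.38, edgeR adjusted p = 0.176) was -1.40 without it. miR-122-5p, made in hepatocytes, was at 166, 63.6, 91.9 and 68.9 CPM against 51.1, 17.4, 46.5 and 18.3 CPM. It was wholly lower, with a log2 difference of -1.59 (SE 0.49, edgeR adjusted p = 0.105). That rested on 176 counts over the 8 libraries, and in allergic 4 each 3 counts were worth 22.1 CPM. miR-194-5p and miR-192-5p of gut and liver had log2 differences of 0.15 and -0.55.

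Epithelial miRNAs differed little. All 14 had a negative log2 difference (13 of 14 with DESeq2's size factors), beside 163 of 277 over all tested. The median was -0.17 beside -0.09 over all tested. Of the 14, 1 was wholly lower, beside 20 of 277 (7.22%), and 0 wholly higher, beside 25 of 277 (9.03%). The groups of the other 13 overlapped. miR-200b-3p was at 35578 to 43454 CPM in immunized and 26193 to 47196 CPM in allergic fluid, and miR-200c-3p at 14907 to 20115 and 12883 to 17632 CPM. miR-182-5p was the exception, at 961, 1308, 1232 and 955 CPM against 467, 737, 498 and 860 CPM. It was lower in every allergic library (log2 -0.79, SE 0.26, edgeR adjusted p = 0.111). miR-205-5p, of basal epithelium, was at 11293 to 25360 CPM in immunized and 11586 to 15270 CPM in allergic fluid.

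Several families of differentiated cells had mostly negative log2 differences, with no member past the main test. Of 9 let-7 guide strands, which are high in differentiated tissue, 8 had a negative log2 difference (median -0.35), beside 163 of 277, and 3 were wholly lower, beside 20 of 277 (7.22%). let-7c-5p was at 15035, 16384, 15354 and 16082 CPM in the immunized and 13479, 11790, 10790 and 9977 CPM in the allergic libraries (log2 -0.46, SE 0.13, edgeR adjusted p = 0.0886). The miR-99/100 and miR-125 miRNAs, which sit beside let-7 genes, were negative in 5 of 5 (median -0.57) and wholly lower in 3. Of these, miR-125b-5p was at 12960, 13362, 11994 and 17526 CPM against 10210, 10141, 8649 and 8591 CPM (log2 -0.57, SE 0.16, edgeR adjusted p = 0.0886). miR-99b-5p was at 2429, 2417, 1954 and 2100 CPM against 1540, 1744, 1376 and 771 CPM (log2 -0.74, SE 0.22, edgeR adjusted p = 0.0933). miR-100-5p had the largest difference of that list, but immunized 2 at 191 CPM lay below allergic 7 at 205.9 CPM (log2 -1.27, SE 0.33, edgeR adjusted p = 0.0886). As a share of counts, let-7 fell in separate ranges, 5.88% to 6.91% in immunized and 4.11% to 5.71% in allergic fluid. The miR-23, miR-27 and miR-24 miRNAs, studied as restrainers of T helper 2 responses, were negative in 7 of 7, or 5 of 7 with DESeq2's size factors (median -0.27, none wholly apart). Their summed share was 10.1% to 12.6% in immunized and 8.65% to 9.72% in allergic fluid. The miR-30 family had a median of -0.10, with miR-30c-5p wholly lower and miR-30e-5p wholly higher, and the miR-29 family a median of -0.20.

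The miR-17-92 cluster and its paralogs, active in dividing cells, had small positive log2 differences, and none passed the main test. Of 11 tested members 11 were positive, beside 114 of 277 over all tested, with a median of 0.44. An unadjusted p under 0.05 was found for 3, and 2 were wholly higher, beside 25 of 277 (9.03%). miR-92a-3p was at 2842, 2382, 2226 and 2245 CPM in the immunized and 5196, 2966, 8501 and 3957 CPM in the allergic libraries (log2 1.06, SE 0.30, edgeR adjusted p = 0.0933; 14-library edgeR adjusted p = 0.0375). miR-25-3p, from the Mcm7 gene on chromosome 5, was at 1274, 834, 756 and 1017 CPM against 2189, 1306, 6679 and 1597 CPM (log2 1.48, SE 0.50, edgeR adjusted p = 0.12). It shares its seed with miR-92a-3p, and its log2 difference was 0.78 without allergic 6. miR-92a-3p and miR-25-3p are also abundant in red blood cells, and their allergic 6 value, like that of miR-451a, was the highest. Whether red cell RNA accounts for part of their differences was not tested.

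The red blood cell miRNAs themselves had large log2 differences, 2.30 for the joint entry of miR-486a-5p and miR-486b-5p, 2.11 for miR-451a and 1.95 for miR-144-3p. Those values rested on allergic 6. miR-451a was at 13514, 2474, 7694 and 6585 CPM in the immunized and 11429, 13322, 154147 and 16478 CPM in the allergic libraries, with allergic 4 and 5 below immunized 1. The difference had an SE of 1.05 (edgeR adjusted p = 0.299), and without allergic 6 it was 0.87 (edgeR adjusted p = 0.494). The other 4 erythroid entries had 0 to 89 counts and were not tested.

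Of the 10 most abundant miRNAs of immunized fluid, miR-21a-5p and miR-16-5p were wholly higher in allergic fluid, and the groups of the other 8 overlapped. Over all tested, 25 of 277 were wholly higher (9.03%) and 20 wholly lower (7.22%). miR-16-5p was at 37660 to 41835 CPM in immunized and 44679 to 67019 CPM in allergic fluid. Those 8 were miR-200b-3p, miR-200a-3p, miR-29a-3p, miR-26a-5p, miR-27a-3p, miR-23a-3p, miR-24-3p and miR-141-3p. miR-29a-3p was at 33023 to 40330 CPM in immunized and 36757 to 39883 CPM in allergic fluid, and miR-24-3p at 23935 to 29425 and 17530 to 24096 CPM. For miR-24-3p only allergic 5 reached the immunized range (log2 -0.30, SE 0.13, edgeR adjusted p = 0.21).

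Of the 277 tested entries, 241 had a sequence in the RefSeq table, with 177 distinct seeds. A seed was shared by 2 or more tested entries in 35 cases. In 3 of these the entries that were wholly apart lay on both sides, the seeds of miR-15, of miR-34 and of miR-30, in 3 only above and in 5 only below. Both arms of 1 hairpin were tested for 60 hairpins, and the sign of the log2 difference was the same for both arms in 47. Across these 60 pairs, which share the 8 libraries and are not independent replicates, Pearson's r was 0.608 and Spearman's rho 0.554. Besides both miR-142a strands, the arms of miR-449c had log2 differences of 0.92 and 0.72 and those of miR-708 of -0.75 and -1.04, while those of miR-574 differed in sign (0.39 and -0.77). The last 2 pairs were named after their values were seen.

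The fluid of allergic and untreated mice in set 2 shares no library with the 8. The contrast between them came from the 14-library edgeR fit, so its filter, scaling and estimate of spread also used the 8. Its calls are therefore not an independent replication. In that contrast, 48 of 294 were higher (16.3%) and 35 lower (11.9%) by edgeR, 83 in all and 50 without untreated 2. Of the 25 miRNAs wholly above in the saline comparison 22 were called higher against untreated mice and none lower, and of the 20 wholly below 5 were called lower and none higher. miR-195a-5p had a log2 difference of -2.33 (edgeR adjusted p = 0.00535), miR-497a-5p of -2.36, miR-142a-3p of 2.94 and miR-223-3p of 4.49. miR-34a-5p, at -0.17 (edgeR adjusted p = 0.653), and miR-186-5p, at -0.36 (edgeR adjusted p = 0.278), did not pass there.

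A test of the difference between the saline and the untreated comparison called 3 of 294 (1.02%), all of 1 cluster on chromosome X. miR-322-3p was at 198.9 ± 100.6 CPM in allergic (mean ± SD, n = 4) and 220.98 ± 119.8 CPM in immunized fluid (n = 4), but at 45.2 ± 20.3 CPM in allergic (n = 3) and 795 ± 254 CPM in untreated fluid (n = 3) of set 2. The log2 changes differed by 3.92 (SE 0.71, edgeR adjusted p = 0.0253). For miR-351-5p and miR-450a-5p the differences were 3.28 (SE 0.66, edgeR adjusted p = 0.0357) and 3.28 (SE 0.72, edgeR adjusted p = 0.0491). The kind of control and the library set cannot be told apart in this contrast. The count was 0 in 7 of the 14 fits that left out 1 library (untreated 2 or 3, immunized 3 or 4, allergic 1, 2 or 3), 1 without allergic 5, 6 without allergic 6, 9 without immunized 1 and 15 without untreated 1.

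In the lavage cells of the same groups, 52 of 243 were called higher (21.4%) and 37 lower (15.2%), 89 in all, 49 without immunized 3 and 56 without immunized 1. Of the 24 miRNAs wholly above in fluid that were tested in cells, 17 were called higher and none lower, with a median log2 difference of 1.11 in cells. Of the 16 wholly below that were tested, 5 were called lower and none higher, with a median of -0.74. miR-142a-3p had a log2 difference of 2.04 in cells and 1.76 in fluid, miR-340-5p of 2.07 and 2.13, and miR-15b-3p of 1.67 and 1.84. miR-195a-5p, at -1.94 in fluid, was at -0.31 in cells (edgeR adjusted p = 0.718), and miR-497a-5p was too low there to test. In untreated mice, whose libraries are not among the 8, the 25 miRNAs wholly above were at a median log2 ratio of cells to fluid of 0.79 (19 more abundant in cells). The 20 wholly below were at -2.04 (5 more abundant in cells), and all 277 at -0.93 (95 more abundant in cells), on log2(CPM + 1). The same ratios of serum to fluid were 0.79, -1.94 and -1.31. The CPM in these ratios were scaled by library totals alone, without TMM. In untreated mice the red cell miR-451a was at 328346 CPM in cells, 519693 CPM in serum and 12116 CPM in fluid. The part of red cell RNA in these ratios was not tested.

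**Figure D4:**
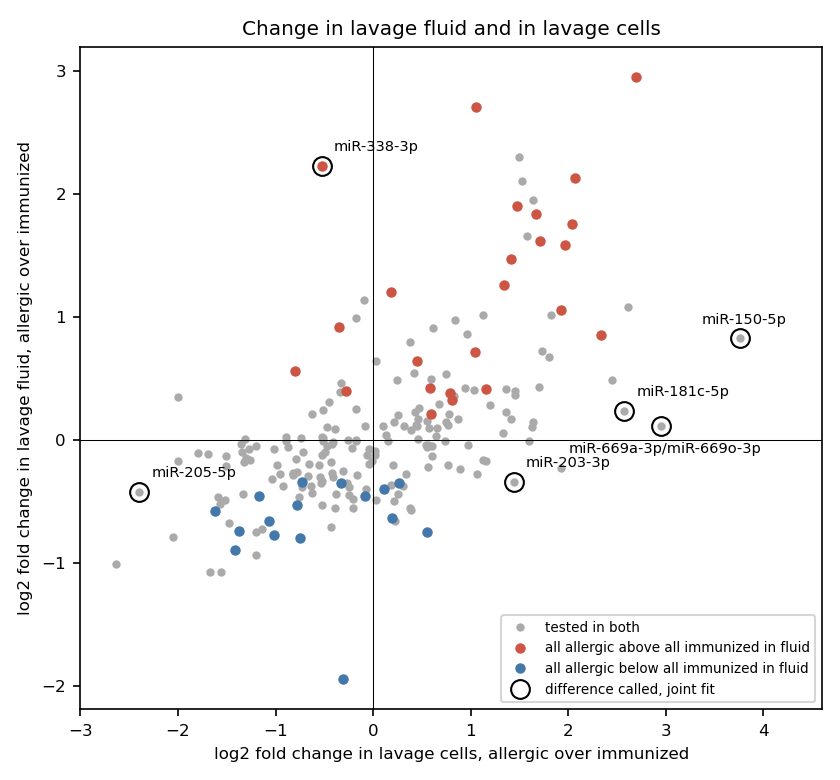
Log2 fold change, allergic over immunized, in lavage cells (horizontal axis) and lavage fluid (vertical axis) of the 218 miRNAs tested in both, with those wholly above in fluid in red and wholly below in blue. The 6 ringed miRNAs had a called difference between the changes. miR-338-3p lies at the upper left and miR-150-5p at the far right.

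The change itself differed between fluid and cells for 6 of 308 miRNAs in a joint fit (1.95%). miR-150-5p was 3.76 higher on the log2 scale in allergic cells but 0.73 in fluid, a difference of -3.02 (SE 0.50, edgeR adjusted p = 0.00264). miR-205-5p was lower in allergic cells by 2.40 on the log2 scale, from 2926 ± 672 to 558 ± 110 CPM, and was at 18530 ± 4985 and 13900 ± 3234 CPM in fluid, for a difference of 1.99 (SE 0.35, edgeR adjusted p = 0.00264). miR-338-3p was at 48.5, 27.1, 21.03 and 33.5 CPM in immunized and 123, 102, 290 and 56.8 CPM in allergic fluid, and at 530 ± 112 and 378 ± 123 CPM in cells (all n = 4). Its changes differed by 2.63 (SE 0.62, edgeR adjusted p = 0.0298). With the library number as a replicate block, miR-338-3p was not called, while the other called miRNAs stayed called. miR-181c-5p (-2.34), the joint entry miR-669a-3p/miR-669o-3p (-2.86) and miR-203-3p (-1.76) were called higher in allergic cells, and their log2 differences in fluid in the joint fit were 0.22, 0.09 and -0.32. In 8 fits that each left out 1 library number from both compartments, miR-150-5p and miR-205-5p were called in all 8, miR-181c-5p in 7, miR-338-3p in 4 and the other 2 in 2. The count was 3 without immunized 1 or 3, 10 and 13 without allergic 6 and 7, and 29 without immunized 2.

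In serum of the same groups edgeR called 0 of 393 (0%), with 2 higher and 6 lower at an unadjusted p under 0.05, and DESeq2 called 0. The 25 miRNAs wholly above in fluid had a median log2 difference of -0.07 in serum (23 tested) and the 20 wholly below of -0.14. miR-142a-3p was at -0.50, miR-195a-5p at -0.18 and miR-340-5p at 0.00. A test of the change in fluid against that in serum called 0 of 411 (0%) by edgeR, with a smallest adjusted p of 0.0513 and 49 at an unadjusted p under 0.05. DESeq2 called 14. The edgeR count was 9 without immunized 1 or allergic 5, 7 without allergic 7 and 4 without immunized 2 or 4. The smallest p values were those of miR-142a-3p, with a difference of 2.19 (SE 0.50), miR-15b-3p (2.22), miR-340-5p (2.08) and miR-497a-5p (-1.89), all with an edgeR adjusted p of 0.0513.

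A test of the change in set 4 against that in set 3 called 0 of 289 (0%) by edgeR and 0 by DESeq2, with 9 at an unadjusted p under 0.05, and 2 were called without immunized 3. With 2 libraries a group in each set, this does not show that the sets were alike. Within sets 3 and 4, mean log2 differences were -1.66 and -2.10 for miR-195a-5p, 1.35 and 1.89 for miR-142a-3p, 1.97 and 1.76 for miR-340-5p and -0.78 and -0.90 for miR-218-5p. They were further apart for miR-147-3p, at 1.5 and 3.76, where immunized fluid of set 4 held 4 and 2 counts. Taken alone, neither set of 2 against 2 gave a call.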

How the data were processed

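Each library took 20 to 65 ng of RNA, and its 3′ adapter carried 5 random bases, per the labels' protocols. The expected counts per mature miRNA were deposited by the authors, under a name with exceRpt, as estimates that need not be whole. Cutadapt, DESeq2 and mm10 are named per the submitters' processing notes, while for the aligner no name is given in the sources used here. The RPM values deposited by the authors sum to 1000000 in each library and served as an alternative only. Their deposited name holds DESeq2norm, and how they were computed is not stated beyond that name. Of the count values 3.95% were not whole. They were rounded, although the plan had assumed whole counts.

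Counts were fitted with edgeR 4.0.16 (R 4.3.3), filterByExpr at a minimum count of 10, TMM scaling, robust dispersions and the library set as a term, with Benjamini-Hochberg adjustment over all tested entries and calls at 0.05. Differences of changes were contrasts or interactions. The SE is the log2 difference over the root of the F statistic. DESeq2 1.42.0 and limma 3.58.1 were alternatives, and the scripts were tested on simulated data. Members of the comparison and miRNA lists were chosen with earlier results of these data known. The text names the 3 lowest p values in each direction, since none passed, the 10 most abundant miRNAs, list members and called differences. It says where a miRNA was named after its values were seen. The labels do not say whether libraries came from separate mice or were pooled, so the p values reflect spread among libraries alone, which may be technical. No 2 libraries of a group were duplicates (chi-square per degree of freedom of 23.9 or more). Counting floors cover counting error only. Every table column used matched a labelled library (0 unmatched).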

Additional observations from a re-analysis of the deposited data

Results flagged for a closer look

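Of 210 groups of 4 libraries tested for a library far from the others, 16 had such a library, and chance marks about 1 in 20. Allergic 6 was far above the other allergic libraries for miR-451a, at 154150 CPM against 11430 to 16480, and for the erythroid share, at 14.93% against 1.258% to 1.72%. It was also far above them for miR-25-3p (6679 CPM), miR-142a-5p (5011 CPM), miR-16-5p (67019 CPM), miR-15b-3p (341.9 CPM), miR-126a-5p (631.8 CPM) the joint entry miR-486a-5p/miR-486b-5p (6119 CPM), miR-144-3p (7981 CPM) and the share of the miR-15/16 seed family (8.646%). Immunized 4 was far above its group for miR-1a-3p (1993 CPM against 95.32 to 175.3) and miR-133a-3p (1377 CPM against 74.9 to 125.2), and immunized 2 for miR-708-3p (106.02 CPM against 34.43 to 44.76). Allergic 7 was far above its group for miR-322-3p (340.8 CPM against 127.7 to 153.2). Immunized 1 had the highest miR-15b-5p of its group at 2350 CPM against 1852 to 1911, and allergic 5 the lowest lymphocyte-linked share at 0.3667% against 0.534% to 0.549%.

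Changes that differed between comparisons were those of miR-322-3p (3.919 on the log2 scale), miR-351-5p (3.278) and miR-450a-5p (3.285), saline minus untreated comparison. Between fluid and cells they were those of miR-150-5p (-3.023), miR-205-5p (1.994), miR-181c-5p (-2.341), miR-338-3p (2.633), miR-669a-3p/miR-669o-3p (-2.856) and miR-203-3p (-1.758). Each is a tested difference with an edgeR adjusted p under 0.05.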

How the results depend on the processing

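The count of called miRNAs in the saline comparison, 0, was also 0 with DESeq2's size factors, a minimum count of 50, limma-voom, limma on the authors' RPM values with a pseudocount of 1 or 10, unrounded counts and within each set. It was 2 with total count scaling (median of all tested -0.18 in place of -0.09), 31 with no filter, 28 with DESeq2's test, 9 with no set term and 16 with all 14 fluid libraries. Leaving out a library gave 0 to 22 in the 8-library fit, and, added after the data were seen, 0 to 34 in the 14-library fit and 11 to 30 with DESeq2. The test of set 4 against set 3 gave 0 to 2, the untreated comparison 50 to 97, the cells 49 to 81 and serum 0 to 0. The difference of the saline and untreated comparisons, 3, was 24 with no filter, 14 with DESeq2 and 0 to 15 without a library. That of fluid and cells, 6, was 16 with DESeq2's size factors, 22 with no filter, 20 with DESeq2 and 3 to 29 without a library number. That of fluid and serum, 0, was 8, 14 and 14 under the same 3 settings and 0 to 9 without a number. No paired analysis was possible for the saline comparison because the labels do not pair its allergic and immunized libraries. Between compartments, r of the deviations of same-numbered libraries was positive with cells (0.049 to 0.37) and was -0.121 to 0.016 with serum. With cells, each library except allergic 4 and 5 correlated best with its own number. With serum, only immunized 1, allergic 4 and allergic 7 did. The labels do not say that same-numbered libraries came from the same mouse, and the main joint fits had no term for the number. With the number as a replicate block, the fluid and cells count was 19, without miR-338-3p but with the other 5 called without the block, and the fluid and serum count 0. At 135710 counts, the smallest library limits miRNAs under about 22.1 CPM.

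The log2 differences of 85 named miRNAs were recomputed, 1770 values in all. Of these, 1542 kept their sign without moving past the threshold, and 110 kept their sign and moved past it. A value that kept its sign but had no adjusted p was counted as not moved. The other 118 changed sign, for 25 miRNAs. The cause was not tested. The values that changed sign follow. With DESeq2's size factors, they were 0.000876 for miR-200b-3p, 0.0152 for miR-23a-3p and 0.0390 for miR-322-5p. With total count scaling, it was -0.0278 for miR-340-3p. With no filter on low counts, they were 0.0154 for miR-141-3p, 0.0253 for miR-222-3p, 0.0298 for miR-200a-3p, 0.0438 for miR-301a-3p, 0.0497 for miR-200b-3p, 0.0473 for miR-23a-3p, 0.0364 for miR-450a-5p and 0.0766 for miR-322-5p. With a minimum count of 50, they were 0.00198 for miR-181b-5p, 0.00488 for miR-141-3p, 0.0558 for miR-222-3p, 0.0304 for miR-200a-3p, 0.0507 for miR-301a-3p, 0.0529 for miR-200b-3p, 0.0762 for miR-23a-3p, 0.0791 for miR-450a-5p and 0.10 for miR-322-5p. With DESeq2's test, they were 0.000904 for miR-200b-3p, 0.0152 for miR-23a-3p and 0.0372 for miR-322-5p. With limma-voom, they were 0.0105 for miR-23a-3p, 0.0795 for miR-450a-5p and 0.11 for miR-322-5p. With limma on the RPM values with a pseudocount of 1, it was -0.14 for miR-669a-3p/miR-669o-3p. With a pseudocount of 10, it was -0.11 for miR-669a-3p/miR-669o-3p. With no library set term, they were 0.0120 for miR-222-3p, 0.0251 for miR-200b-3p, 0.0423 for miR-23a-3p, 0.21 for miR-450a-5p and 0.23 for miR-322-5p. With all 14 fluid libraries, they were 0.0152 for miR-222-3p, 0.0109 for miR-301a-3p, 0.0187 for miR-200b-3p, 0.0372 for miR-23a-3p, 0.0243 for miR-450a-5p and 0.0636 for miR-322-5p. With set 3 alone, they were 0.12 for miR-133a-3p, 0.0156 for miR-130a-3p, 0.0445 for miR-200c-3p, 0.0189 for miR-132-3p, -0.13 for miR-669a-3p/miR-669o-3p, 0.19 for miR-200a-3p, 0.14 for miR-301a-3p and 0.17 for miR-200b-3p. With set 4 alone, they were 0.0164 for miR-31-5p, 0.0455 for miR-27a-3p, 0.25 for miR-342-3p, 0.21 for miR-322-3p, 0.47 for miR-26a-5p, 0.0913 for miR-181b-5p, 0.11 for miR-141-3p, 0.21 for miR-222-3p, 0.37 for miR-23a-3p, 0.64 for miR-450a-5p, -0.99 for miR-340-3p, 0.80 for miR-322-5p, 0.12 for miR-34b-3p, 0.0527 for miR-34c-3p and -0.15 for miR-574-5p. Leaving out a library gave log2 differences of -0.78 to 0.14 for miR-351-5p, -0.26 to 0.11 for miR-342-3p, -0.54 to 0.41 for miR-322-3p, -0.31 to 0.10 for miR-132-3p, -0.37 to 0.0782 for miR-26a-5p, -0.20 to 0.16 for miR-181b-5p and -0.14 to 0.11 for miR-222-3p. It also gave -0.12 to 0.12 for miR-301a-3p, -0.24 to 0.16 for miR-23a-3p, -0.48 to 0.44 for miR-450a-5p, -0.25 to 0.45 for miR-340-3p, -0.25 to 0.58 for miR-322-5p, -0.16 to 0.14 for miR-141-3p and -0.10 to 0.11 for miR-200a-3p. It also gave -0.0452 to 0.12 for miR-200b-3p, -2.14 to 0.0741 for miR-1a-3p, -0.18 to 0.0467 for miR-27a-3p, -0.11 to 0.43 for miR-669a-3p/miR-669o-3p, -0.25 to 0.0194 for miR-34b-3p and -0.27 to 0.0356 for miR-34c-3p.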
